A study of Mus musculus with 2 samples.

Results

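Adenosine receptors and the genes that make, move and clear adenosine were followed in RNA bound to tagged ribosomes of the mouse ventral striatum. The set held 9 genes, chosen by name: the receptor genes Adora1, Adora2a, Adora2b and Adora3, the enzyme genes Nt5e, Adk and Ada, and the transporter genes Slc29a1 and Slc29a2. All 9 were found among the 32531 gene symbols of the count tables. The RNA came from adult mice of the line Stard5-TRAP JX5852, which carry the ribosomal protein Rpl10a fused to EGFP (Stard5-EGFP/Rpl10a), were controls and had no treatment. Tagged polysomes were pulled down from dissected ventral striatum with monoclonal antibodies against EGFP, and the purified RNA gave 2 libraries of the only group, called replicate 1 and replicate 2.

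The tag is driven by regulatory sequence of Stard5, and the labels do not say which cells of the ventral striatum use it. They give neither the number of animals nor whether each library had animals of its own, so the spread between the libraries may be technical. No library of input RNA was analysed here, so a level below is not an enrichment over the tissue. In such bulk RNA, fewer cells of a type and less RNA per cell cannot be told apart.

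Adenosine is a modulator that builds up outside cells during activity and wakefulness. It is released as such or made outside cells from ATP and AMP. Adora1 encodes a receptor that couples to inhibitory G proteins and lowers cAMP, and it is found on many neurons and nerve endings. Adora2a encodes a receptor that raises cAMP, in the striatum through the G protein subunit Gnal and the adenylyl cyclase Adcy5, and in the striatum it is best known from the spiny neurons of the indirect pathway, which also carry the dopamine receptor Drd2. Both receptors are blocked by caffeine. Equilibrative transporters carry adenosine across the membrane, adenosine kinase turns it into AMP, and adenosine deaminase turns it into inosine.

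Replicates 1 and 2 held 25830282 and 29574781 reads in named genes. Levels are given as CPM, reads per 1000000 reads in named genes, with exact Poisson 95% intervals that cover counting error only. Markers of spiny neurons were all detected, 13 of 13, with summed levels of 14709 CPM in replicate 1 and 13043 CPM in replicate 2. Sums below follow the same order. The spiny neuron list holds Gad1 (441 and 569 CPM) and Gad2 (2727 and 3192 CPM), which mark GABA neurons in general. Its sum is therefore not specific to spiny neurons. Markers of glia were present as well: astrocyte markers, 12 of 12 detected and none at 0 reads, summed to 1341 and 3966 CPM, and oligodendrocyte markers, 10 of 10 detected, to 962 and 1486 CPM. Markers of oligodendrocyte precursors (5 of 6 detected) summed to 84.7 and 178 CPM, those of microglia (10 of 10) to 194 and 146 CPM, and those of endothelial and mural cells (7 of 11) to 42.7 and 49.4 CPM. Fibroblast markers (1 of 5 detected) summed to 3.64 and 4.97 CPM. Of the ependymal and choroid plexus markers, 1 of 6, Kl, was detected and 4, Ttr, Folr1, Ccdc153 and Tmem212, had 0 reads in both libraries. Cholinergic interneuron markers (5 of 5 detected) summed to 95.5 and 133 CPM, and GABA interneuron markers (4 of 6) to 106 and 160 CPM, with Vip at 0 reads in both.

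By CPM, which is not scaled for gene length, the detected adenosine genes fell into 3 tiers. Adora1 and Adora2a were the highest, Nt5e and Adk lay between, and Slc29a1 and Slc29a2 were the lowest. Per kilobase of merged exons Slc29a2 was above Adk in replicate 2, so the split of the lower tiers did not hold on that scale. With the longest transcript as length, chosen after the data had been seen, Nt5e and Adk stayed above both transporter genes in both libraries. Ada, Adora2b and Adora3 stayed under the detection limit of 1 CPM in both libraries. Of the 9 genes 6 were thus detected, where 38.0% of all 32531 named genes were. Together the 9 genes held 7945 reads in replicate 1 and 6943 in replicate 2, of which Adora1 and Adora2a took 86.1% and 80.9%.

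**Figure D1:**
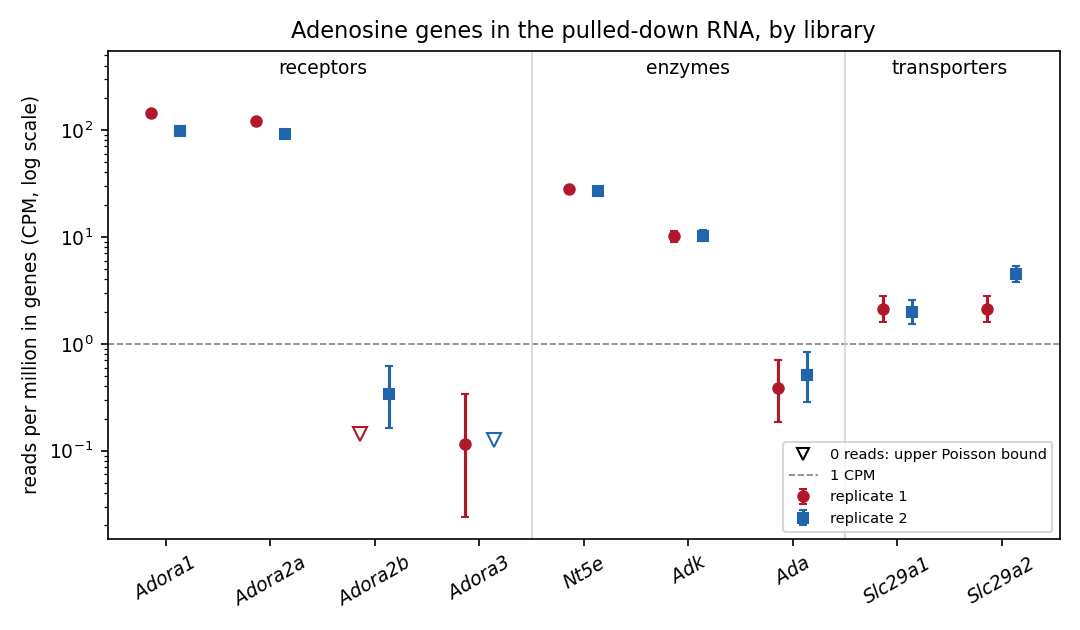
CPM (log scale) of the 9 adenosine genes in replicate 1 (circles) and replicate 2 (squares), with exact Poisson 95% intervals, and open triangles for the upper bound of a library with 0 reads. Adora1 and Adora2a lay between 91.5 and 144 CPM, Nt5e and Adk between 10.1 and 28.0 CPM, and Ada, Adora2b and Adora3 below the dashed line at 1 CPM.

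Adora1, the receptor gene with the most reads, stood at 144 CPM (95% interval 140 to 149, 3726 reads) in replicate 1 and at 98.5 CPM (94.95 to 102, 2913 reads) in replicate 2. The mean was 121 ± 32.4 CPM (SD, n = 2), rank 1792 of all named genes. The libraries' intervals did not overlap, and replicate 1 was the higher. The gene (ENSMUSG00000042429.8) is on the minus strand of chromosome 1, 134199223 to 134235431, in the mouse build GRCm38, and its merged exons span 5785 bases. Of those bases 20.1% are shared with Mybph, a muscle protein gene on the plus strand, and reads there could be counted to neither gene. Mybph itself had 0 reads in replicate 1 and 4 in replicate 2.

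Adora2a stood at 121 CPM (116 to 125, 3113 reads) in replicate 1 and at 91.5 CPM (88.1 to 95.01, 2706 reads) in replicate 2, a mean of 106 ± 20.5 CPM (SD, n = 2). Here too replicate 1 was the higher and the intervals did not overlap, and most detected genes differed beyond counting error, as given below. The gene (ENSMUSG00000020178.6) is on the plus strand of chromosome 10, 75316877 to 75334784, with 3062 bases of merged exons and none shared with another gene.

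Per length of exon Adora2a, not Adora1, was the leading receptor. Reads of long genes are more numerous at the same number of molecules, so levels of different genes were compared as CPM per kilobase of merged exons. On that scale Adora2a stood at 39.4 in replicate 1 and 29.9 in replicate 2, and Adora1 at 24.9 in replicate 1 and 17.03 in replicate 2. Adora2a was above Adora1 in both libraries, by 0.66 log2 units (95% interval 0.59 to 0.73) in replicate 1 and by 0.81 (0.74 to 0.89) in replicate 2. The mean difference was 0.74 ± 0.11 (SD, n = 2), or 1.66-fold. In raw reads the order was the opposite: Adora2a had 45.5% of the reads of the pair in replicate 1 (Clopper-Pearson 95% interval 44.3 to 46.7) and 48.2% (46.8 to 49.5) in replicate 2, where equal levels per kilobase would give 34.6%. With only the exon bases that no other gene shares, the difference per kilobase was 0.41 ± 0.11. With 2 libraries an exact sign permutation test of such a difference cannot go below p = 0.5, so no test over libraries is given.

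The other receptor genes were nearly absent. Adora2b, a lower-affinity receptor that raises cAMP, had 0 reads in replicate 1, which allows up to 0.143 CPM, and 10 reads or 0.338 CPM (0.162 to 0.622) in replicate 2. Against a floor of 3 reads in replicate 1, or 0.116 CPM, it was above the floor only in replicate 2. Adora3, a receptor gene known in mice from mast cells, had 3 reads in replicate 1, or 0.116 CPM (0.0240 to 0.339), and 0 reads in replicate 2, which allows up to 0.125 CPM. Of its exon bases 20.9% are shared with Tmigd3 on the same strand, which had 0 reads in both libraries. Adora2b (ENSMUSG00000018500.2) is on chromosome 11, 62248984 to 62266453, and Adora3 (ENSMUSG00000000562.5) on chromosome 3, 105870858 to 105908926, both on the plus strand.

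Of the receptor signal per kilobase, Adora2a made up 61.2% in replicate 1 and 63.5% in replicate 2, a mean of 62.3% ± 1.60 (SD, n = 2). Adora1 made up 38.8% and 36.2%, a mean of 37.5% ± 1.84. Adora2b and Adora3 were each below 0.4% in both libraries. Among the 11465 detected genes with an annotated length, Adora2a lay at percentile 90.9 and Adora1 at percentile 83.8 by mean CPM per kilobase.

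Both receptor genes lay below the dopamine receptor genes of the same tissue. Drd1, a marker of the direct pathway, averaged 74.0 ± 7.04 CPM per kilobase and Drd2, a marker of the indirect pathway, 75.3 ± 29.9 (SD, n = 2). Adora2a was below Drd2 by 1.29 log2 units in replicate 1 and by 0.86 in replicate 2, a mean difference of -1.08 ± 0.31. It was below Drd1 in both libraries as well, with a mean difference of -1.11 ± 0.14. Adora1 was lower still, at -1.84 ± 0.25 against Drd1 and -1.81 ± 0.20 against Drd2. The intervals of the Adora2a minus Drd2 difference did not overlap between the libraries, at -1.35 to -1.23 in replicate 1 and -0.93 to -0.79 in replicate 2, with Drd2 itself at 246 and 138 CPM in these libraries. Against Grm5, a metabotropic glutamate receptor gene whose protein works together with that of Adora2a in indirect pathway neurons, the sign of the difference changed between the libraries, at 0.41 in replicate 1 and -0.41 in replicate 2.

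Most genes of a chosen list of 13 G protein and cAMP genes were more abundant than the receptor genes. Per kilobase, 10 of 13 stood above Adora2a and above Adora1 in both libraries, and Gnai2, Gnai3 and Gnaz, which encode inhibitory subunits, stood below both. Gnai2 was close to Adora1 in replicate 2, at 16.8 against 17.03 CPM per kilobase, and no interval was computed for that pair. All 13 genes of that list were detected, with a list median of 439 CPM, where the median of all detected genes was 23.1 CPM. The list shares Gnal, Adcy5, Ppp1r1b and Pde10a with the spiny neuron markers. Its levels therefore do not stand for G protein and cAMP genes at large. Gnal, which couples the receptor of Adora2a to adenylyl cyclase, averaged 222 ± 25.2 CPM per kilobase, the dopamine and cAMP-regulated phosphoprotein gene Ppp1r1b 214 ± 57.6, and the inhibitory subunit gene Gnai1 175 ± 4.43 (SD, n = 2). Adora2a lay 2.69 ± 0.12 log2 units below Gnal. None of the 13 genes passed the test between the libraries described below, and their log2 ratios of replicate 1 over replicate 2 ran from -0.08 to 0.55.

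Nt5e was the most abundant of the enzyme genes. It encodes the membrane enzyme that makes adenosine from AMP outside the cell. Its level was 28.0 CPM (25.9 to 30.1, 722 reads) in replicate 1 and 27.1 CPM (25.3 to 29.1, 802 reads) in replicate 2, a mean of 27.5 ± 0.590 CPM (SD, n = 2). The libraries did not differ beyond counting error. The gene (ENSMUSG00000032420.8) is on the plus strand of chromosome 9, 88327197 to 88372092, and no exon base is shared with another gene.

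Adk encodes adenosine kinase, the main route by which brain cells remove adenosine, and in the adult brain its protein is known mostly from astrocytes. It stood at 10.1 CPM (8.92 to 11.4, 261 reads) in replicate 1 and 10.3 CPM (9.16 to 11.5, 304 reads) in replicate 2, a mean of 10.2 ± 0.123 CPM. Ada, the deaminase gene, had 10 reads in replicate 1 and 15 in replicate 2, or 0.387 CPM (0.186 to 0.712) and 0.507 CPM (0.284 to 0.837). The intervals of the libraries overlapped for both genes. Adk (ENSMUSG00000039197.10) is on the plus strand of chromosome 14, 21052574 to 21448569, and Ada (ENSMUSG00000017697.3) on the minus strand of chromosome 2, 163726584 to 163750239.

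Per kilobase the enzyme genes kept the order Nt5e, Adk, Ada in both libraries. Nt5e lay above Adk by 1.42 ± 0.05 log2 units, or 2.68-fold, and Adk above Ada by 2.43 ± 0.26, or 5.40-fold (SD, n = 2). The interval of the Adk minus Ada difference was wide, at 1.71 to 3.69 in replicate 1 and 1.51 to 3.11 in replicate 2, because Ada had so few reads. By CPM per kilobase of merged exons, Nt5e lay at percentile 36.5 of detected genes and Adk at percentile 14.8. With the longest transcript as length, a choice made after the data had been seen, Nt5e stood at 6.89 CPM per kilobase, percentile 48.5, and Adk at 2.40, percentile 22.9. Nt5e was also at percentile 54.5 by CPM, so its place against the typical detected gene depends on the scale, while Adk was below it on each of these scales, at percentile 31.3 by CPM. Adora2a exceeded Nt5e by 3.42 ± 0.25 log2 units.

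In CPM, the equilibrative transporter genes were the lowest of the detected genes of the set. Slc29a1 stood at 2.13 CPM (1.60 to 2.77, 55 reads) in replicate 1 and 1.99 CPM (1.52 to 2.57, 59 reads) in replicate 2, a mean of 2.06 ± 0.0950 CPM (SD, n = 2). Slc29a2 also stood at 2.13 CPM (1.60 to 2.77, 55 reads) in replicate 1, but at 4.53 CPM (3.80 to 5.37, 134 reads) in replicate 2, a mean of 3.33 ± 1.70 CPM. The genes were thus level in reads in replicate 1, and Slc29a2 was the higher in replicate 2. Per kilobase, Slc29a1 minus Slc29a2 was -0.41 in replicate 1, with a 95% interval of -0.98 to 0.16. In replicate 2 it was -1.59, with an interval of -2.06 to -1.14. The mean of -1.001 ± 0.837 was not much larger than its spread, and in replicate 1 the interval included 0. Slc29a1 (ENSMUSG00000023942.15) is on the minus strand of chromosome 17, 45585200 to 45599606, with 6.86% of its exon bases shared with Gm17080, and Slc29a2 (ENSMUSG00000024891.6) on the plus strand of chromosome 19, 5023860 to 5031972, with none shared.

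Over the whole set, the order per kilobase began with Adora2a, Adora1 and Nt5e in both libraries. Adk followed at 1.20 ± 0.0145 CPM per kilobase and Slc29a2 at 1.10 ± 0.563, and these neighbours changed places between the libraries. With the longest transcript as length they did not: Adk stood at 2.38 and 2.42 and Slc29a2 at 0.813 and 1.73 in replicates 1 and 2. Slc29a1 came next at 0.514 ± 0.0237 and Ada at 0.223 ± 0.0424. Adora2b and Adora3 closed the order, each with 0 reads in a library, and could not be ranked against each other.

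Other purine genes of the same pathway, taken by list, gave a frame for these levels. Of 6 ATP release genes found, 2 were detected, the pannexin channel genes Panx2 at 4.96 ± 0.623 and Panx1 at 1.91 ± 1.46 CPM per kilobase (SD, n = 2). Panx3 and Calhm1 had 0 reads in both libraries. Of 8 ecto-nucleotidase genes, most of which break down ATP or ADP ahead of the step of Nt5e, 3 were detected: Entpd3 at 3.66 ± 0.962, Entpd1 at 1.42 ± 0.542 and Enpp1 at 0.496 ± 0.264. Nt5e lay above Entpd1 in both libraries, by 1.65 log2 units in replicate 1 and 0.81 in replicate 2.

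Among 5 other nucleoside transporter genes, 2 were detected. The lysosomal transporter gene Slc29a3 stood at 3.04 ± 0.488 CPM per kilobase, above Slc29a1 and Slc29a2 in both libraries, and Slc29a4, a transporter of monoamines and adenosine, stood at 1.03 ± 0.767. The concentrative transporter genes Slc28a2 and Slc28a3 had 0 reads in both libraries, and Slc28a1 had 0 reads in replicate 1 and 28 in replicate 2.

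The list of purine turnover inside the cell, which holds the enzyme relatives Ahcyl1 and Ahcyl2 as well as enzymes, was more widely detected, 15 of 18. The leading genes per kilobase were the purine salvage gene Hprt at 99.9 ± 43.2, Ahcyl1, a relative of the enzyme that frees adenosine from S-adenosylhomocysteine, at 66.1 ± 0.0346, and the adenylate kinase gene Ak5 at 25.5 ± 1.74. Each of these was above Nt5e, Adk and Ada in both libraries. Ahcy, which encodes the enzyme that frees adenosine, stood far below Ahcyl1, at 3.86 ± 0.924 CPM per kilobase. Of 14 receptor genes for ATP and other nucleotides, 6 were detected, led by P2ry1 at 14.4 ± 4.50 and by P2ry12 and P2ry13, which are known from microglia, at 9.44 ± 2.23 and 5.16 ± 2.40. All 6 lay below Adora1 and Adora2a in both libraries.

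**Figure D2:**
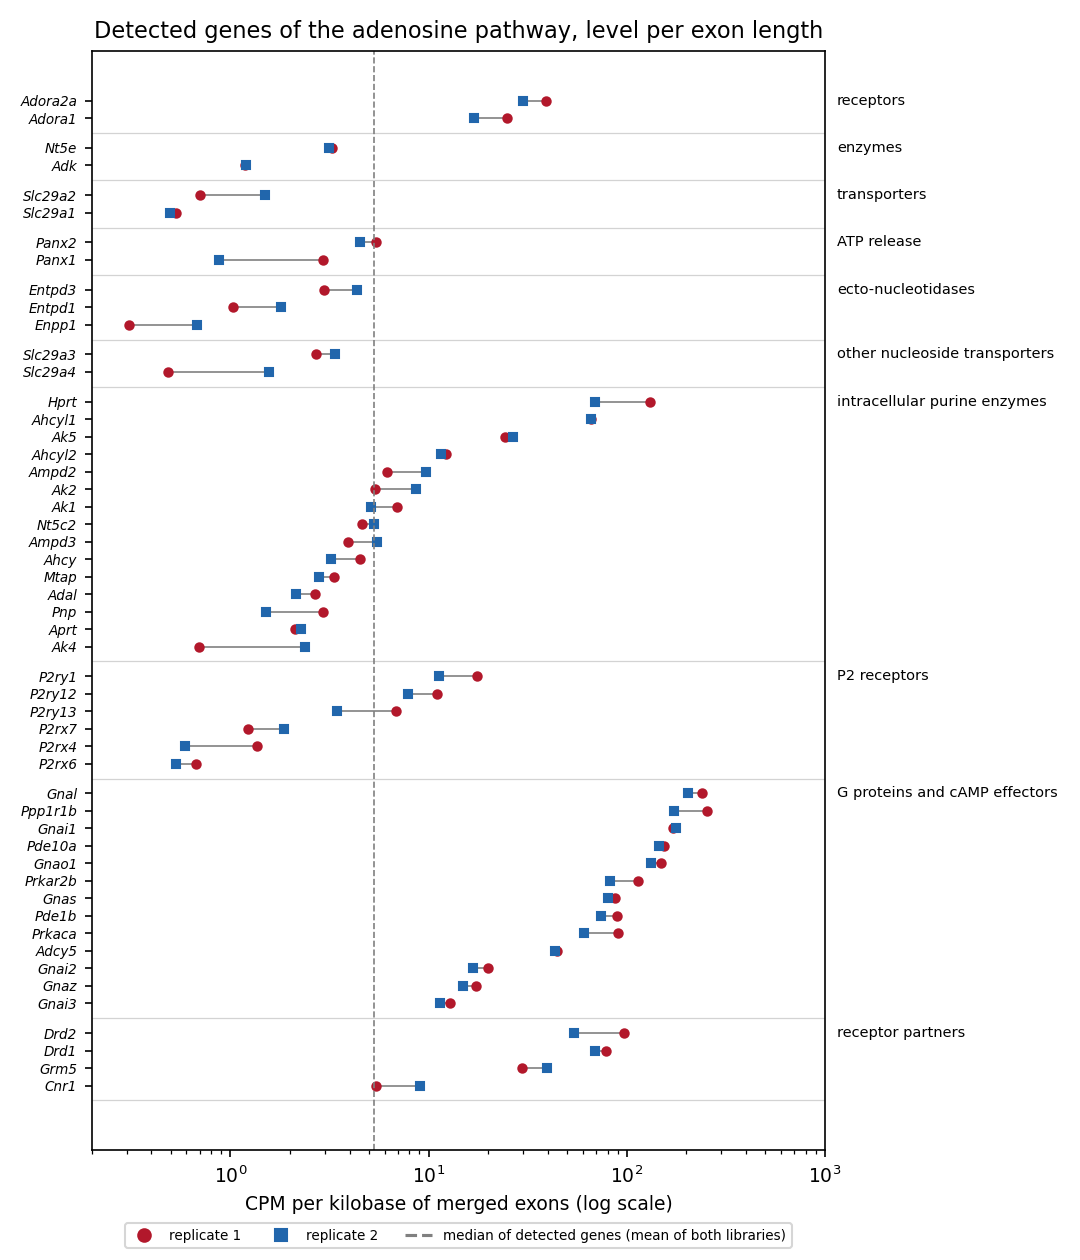
CPM per kilobase of merged exons (log scale) of the detected genes of the adenosine set and of the other purine and signalling lists, in replicate 1 (circles) and replicate 2 (squares), joined by a line for each gene. Adora2a and Adora1 lay right of the dashed median of all detected genes and left of Gnal, while Nt5e, Adk, Slc29a1 and Slc29a2 lay left of that median.

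The libraries were then compared gene by gene, to see which levels of the set held between replicates. The reads of each of the 12374 detected genes entered an exact binomial test, 2-sided and with TMM-scaled library sizes. A gene passed if its ratio was 2-fold or larger and its p, after Benjamini-Hochberg adjustment over all detected genes, was below 0.05. Both libraries belong to a single group, so the test compares libraries and not conditions, and counting error is the only error it holds. Of the 6 detected adenosine genes 1 passed, where 17.4% of all detected genes did, a share too close to that background to say anything of the set. The 3 undetected genes were not tested.

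Slc29a2 was the gene that passed. It was higher in replicate 2, with a log2 ratio of replicate 1 over replicate 2 of -1.12 (95% interval -1.60 to -0.65, 2.17-fold) and an adjusted p of 1.06e-06 in the exact binomial test. Its interval reached inside the 2-fold line. Of all detected genes, 9.57% passed as higher in replicate 2. Of 12 astrocyte markers 9 passed in the same direction and 0 in the other, with a median log2 ratio of -1.47, as did 4 of 10 oligodendrocyte markers, with a median of -0.74. Other lists lay on the same side. Oligodendrocyte precursor markers had a median of -0.83, with 5 of 5 below 0 and 1 past the test. Cholinergic interneuron markers had a median of -0.82, with 5 of 5 below 0 and 2 past the test. GABA interneuron markers had a median of -0.52, with 4 of 4 detected below 0 and 0 past it. Pvalb of the GABA list, undetected and so not tested, went the other way, at 2.25 CPM in replicate 1 and 0.507 in replicate 2. The part of any of these cells in the ratio of Slc29a2 was not tested.

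Adora1 and Adora2a were higher in replicate 1 by less than 2-fold. With that size neither counted among the 7.78% of detected genes that passed as higher there. The log2 ratio was 0.52 (0.45 to 0.59) for Adora1 and 0.37 (0.30 to 0.45) for Adora2a. Adjusted p was 2.36e-48 and 4.01e-22 in the exact binomial test, so both differed beyond counting error. So did 9761 of the 12374 detected genes, by an adjusted p below 0.05 with no fold requirement. Of all detected genes, 56.9% had a smaller log2 ratio in size than Adora1 and 43.1% a smaller one than Adora2a, with a median size of 0.45. The median log2 ratio of the spiny neuron markers was 0.21, with 9 of 13 above 0, and 0 of 13 passed. Gad1 and Gad2, which mark GABA neurons in general, were among the 4 below 0, at -0.40 and -0.25. Indirect pathway markers had a median of 0.33, with 7 of 7 above 0, and summed to 2429 CPM in replicate 1 against 1408 in replicate 2, of which Penk made up 1904 and 1031 CPM. Of these 7, Plxdc1 alone passed. Direct pathway markers had a median of 0.17, with 6 of 7 above 0, and summed to 951 and 649 CPM. Of these 7, Tac1 and Isl1 passed with more in replicate 1 and Eya1 with more in replicate 2. Microglia markers had a median of 0.36, with 8 of 10 above 0 and 1, C1qb, past the test as higher in replicate 1. Endothelial and mural markers had a median of 0.27, with 5 of 7 detected above 0 and 2, Pecam1 and Kdr, past it in that direction. Their list sum went the other way, at 42.7 and 49.4 CPM in replicates 1 and 2. The undetected members, which were not tested, were higher in replicate 2. Pdgfrb stood at 0.968 and 10.1 CPM, Cldn5 at 0.155 and 1.18, Kcnj8 at 0 and 0.947 and Acta2 at 0.387 and 0.440. The part of any of these cells in the ratios of Adora1 and Adora2a was not tested.

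The remaining detected genes of the set did not differ between the libraries beyond counting error. The log2 ratio was 0.02 (-0.13 to 0.16) for Nt5e, -0.05 (-0.29 to 0.19) for Adk and 0.07 (-0.49 to 0.62) for Slc29a1, with adjusted p of 0.841, 0.736 and 0.872 in the exact binomial test. The interval was widest for Slc29a1, which had 55 and 59 reads. The astrocyte markers had sums of 1341 and 3966 CPM in replicates 1 and 2, of which Slc1a2 made up 741 and 2496 CPM, while the log2 ratio of single markers ran from -2.18 for Slc1a3 to -0.14 for Gjb6. The part of astrocyte RNA in the level or ratio of Adk was not tested.

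Of the 28 genes tested in the other purine lists, 5 (17.9%) passed the test between the libraries, a share near the 17.4% of all detected genes. Panx1 (log2 ratio 1.72) and the ATP-gated channel gene P2rx4 (1.19) were higher in replicate 1. Enpp1 (-1.17), Slc29a4 (-1.72) and the mitochondrial adenylate kinase gene Ak4 (-1.81) were higher in replicate 2. The 3 detected ecto-nucleotidase genes all had ratios below 0, and of the 6 detected P2 receptor genes 5 had ratios above 0. Of the undetected P2 receptor genes, P2rx1 (60 and 0 reads) and P2ry6 (23 and 4) had more in replicate 1. P2rx3 (17 and 66), P2ry2 (0 and 24) and P2ry14 (1 and 44) had more in replicate 2. The rest had at most 2 reads in either library. Of the 15 detected genes in the list of purine turnover inside the cell, 7 had ratios above 0 and 8 below. Their median was -0.02, where the median over all detected genes was 0.00.

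**Figure D3:**
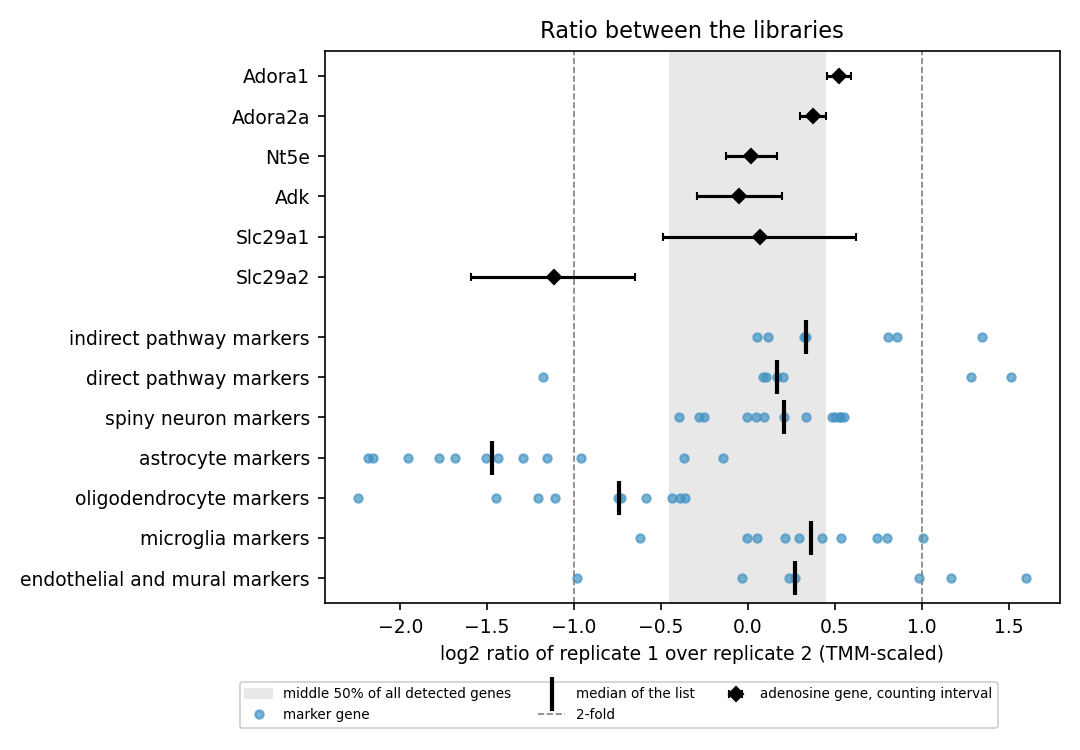
Log2 ratio of replicate 1 over replicate 2 for the 6 detected adenosine genes (diamonds, with 95% counting intervals) and for marker genes of cell types (circles, bars at list medians), with the middle 50% of all detected genes shaded and 2-fold ratios dashed. Nt5e, Adk and Slc29a1 sat near 0, Adora1 and Adora2a at 0.52 and 0.37, and Slc29a2 at -1.12. The medians of the astrocyte and oligodendrocyte markers, -1.47 and -0.74, were also below 0, and the part of these cells in any ratio was not tested.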

How the data were processed

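Each deposited file gives raw read counts by gene symbol for 1 library. Per the submitters' processing notes, STAR 2.0.0e, HTSeq and the mouse build mm10 were used. No source used here names the annotation, strand setting or read filters, so reads of overlapping genes cannot be told apart. Library totals leave out 6 lines without a gene name. Of all counted reads, those outside annotated exons made up 22.8% in replicate 1 and 31.0% in replicate 2, those with several alignments 27.9% and 13.6%, and ambiguous reads 1.84% and 2.08%.

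Counts were converted to CPM over named genes. A gene was detected if each library had at least 1 CPM, the worth of 25.8 reads (replicate 1) or 29.6 reads (replicate 2). Floors were 3 reads. Intervals and floors cover counting error only, because without molecular identifiers several reads can stem from a single molecule. Exon lengths, gene identifiers and coordinates came from GENCODE M21 (GRCm38, the build of mm10), matched by symbol. A length was found for 92.7% of detected genes, including all 9 members. These exons may differ from those the authors counted over. Library sizes were scaled by TMM (edgeR 4.0.16) over detected genes, and the exact binomial test and intervals used scipy 1.17.1. The test was checked on simulated counts that held counting error only. The libraries themselves varied more, with a common coefficient of variation beyond counting of 0.355 (edgeR).

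All 9 members are named. Of each other purine or signalling list, the up to 3 detected genes with the highest CPM per kilobase and, where one passed the test, the gene with the largest ratio were named. Genes named because they had 0 reads, because they passed the test or as pairs for a member were chosen after their values were seen, as were the pairs other than Adora2a with Adora1, Slc29a1 with Slc29a2 and Adk with Ada. Members and lists were chosen with earlier results of these data known. Genes named to describe the make-up of a list were also chosen after their values were seen. Of the fixed list genes, Calhm3 was not found among the symbols. Likeness of pattern between genes was not computed, because 2 libraries of 1 group give no pattern over conditions. Alternatives were other scalings, lengths, detection limits and folds, and each library alone.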

Additional observations from a re-analysis of the deposited data

How the results depend on the processing

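No paired analysis was possible because the series holds 1 group. The number of adenosine genes detected stayed at 6 in either library alone, with TMM or DESeq2 size factors and without Rn45s, and was 4 at a limit of 5 CPM and 7 at 1 read. The difference of Adora2a minus Adora1 per kilobase was 0.66 to 0.81 in single libraries and 0.75 with the longest transcript as length, 0.41 with exon bases shared with no other gene, and -0.18, of opposite sign, without length scaling. The share of Adora2a in receptor signal was 61.2% to 63.5% in single libraries, 57.0% with unshared exon bases and 46.8% without length scaling. Adk minus Ada was 2.25 to 2.62 in single libraries, 3.19 with the longest transcript and 4.52 without length scaling. Slc29a1 minus Slc29a2 was -1.59 to -0.41 in single libraries and -0.35 with the longest transcript, where the order in replicate 1 was the opposite, at 0.961 CPM per kilobase for Slc29a1 and 0.813 for Slc29a2. With the longest transcript, an alternative added after the data had been seen, Nt5e stood at 6.89 and Adk at 2.40 CPM per kilobase, and Adk was above Slc29a2 in both libraries. Length differs between genes and annotations, so these shifts follow from the construction of the alternatives.

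Of all detected genes 2147 passed the test between libraries (963 higher in replicate 1, 1184 in replicate 2), 2144 with DESeq2 size factors, 2148 with plain CPM and 1495 at a mean of 5 CPM or more. Without a filter 5796 passed, 1947 higher in replicate 1 and 3849 in replicate 2, with a 1.5-fold ratio 4737, and with no fold requirement 9761. Without a filter Adora2b also passed, with an adjusted p of 0.00373 in the exact binomial test on 0 and 10 reads. With no fold requirement Adora1, Adora2a and Slc29a2 passed. Slc29a2 lies below a mean of 5 CPM and is not tested there, so no adenosine gene passed. The log2 ratios of the 6 detected genes kept their sign and side of the threshold in 12 of 12 rescaled values. The log2 ratio of library sizes shifted against TMM by only 0.0024 with DESeq2 size factors and by -0.026 with plain CPM. That shift is the same for every gene, so these values could hardly change. Mean CPM moved by more than 1 SD in 3 of 36 values, for Adk (10.9), Nt5e (29.5) and Slc29a1 (2.21), all with the total without Rn45s. The 36 include values of single libraries, which could not move, because each of 2 values lies within 1 SD of their mean. The 3 genes had SDs that were small against their means, so the count is no measure of stability. A single library cannot give the test between libraries. Depth limits Ada, Adora2b and Adora3, with at most 15 reads each, and the transporter genes.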
